A study of Mus musculus with 743 samples.

Results

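Transcripts of 8 genes of gap, tight and adherens junctions were followed in single Schwann cells (SCs), the glia that ensheath the axons of peripheral nerves, at postnatal day 1 (P1). The 8 genes, out of 25700 in the count table, were chosen by name, with earlier results of these data known. They are the connexin genes Gjb1, Gjc3 and Gja1, the tight junction genes Cldn19, Tjp1 and Mpdz, and the adherens junction genes Cdh1 and Ctnnb1. Cells came from the sciatic nerves of C57bl/6J mice that carried P0Cre, the eYFP reporter of the Rosa26 locus and βAct-DsRed, with 1 copy of each. P0Cre is active along the SC lineage, so eYFP marks cells in which Cre was active at some time. Cells positive for eYFP were sorted singly into the wells of plates and processed with Smart-seq2, which sequences full-length cDNA and has no molecular identifiers. There were 2 plates, each filled from its own pair of 1 male and 1 female pup, which makes plates, and not cells, the replicates (n = 2).

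Of 743 wells, 621 had at least 1500 detected genes and were kept as cells. They were divided by 3 other genes. Cycling cells (53 on plate 1 and 57 on plate 2) had a summed level of Mki67 and Top2a of at least 50 counts per 1000000 (CPM, the reads of a gene relative to all reads of the same cell, or of the same sum of cells). Promyelinating cells (59 and 60) were not cycling and had at least 50 CPM of Ncmap, which encodes a membrane protein of non-compact myelin. Other cells (175 and 217) were all the rest. Mki67, Top2a and Ncmap were therefore not tested. Of 13 myelination markers, 8 were higher in promyelinating than in other cells and 11 higher than in cycling cells. Of the genes used to check the name of the class, Mbp, Pmp22 and Prx were higher there than in other cells and than in cycling cells. Prx, which encodes periaxin, a protein of myelinating SCs, was 4.27-fold higher than in other cells, at 1490 and 1635 CPM on the 2 plates against 318 and 458 (edgeR adjusted p = 0.00333). Egr2, which encodes a transcription factor of myelination, was higher than in cycling cells (adjusted p = 0.00562) but did not pass the test against other cells (333 and 307 CPM against 147 and 131, adjusted p = 0.0805). Pou3f1 (adjusted p = 0.468), Cdkn1c (0.0982), Mal (0.218) and Drp2 (0.153) did not pass against other cells either (edgeR).

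Markers of cell identity were then compared between the classes. Of the listed SC markers, Sox10 and Erbb3 did not pass the test in any comparison, with Sox10, a transcription factor of the SC lineage, at 150 to 228 CPM in the 6 sums. S100b, which encodes a calcium-binding protein of glia, had 251 and 288 CPM in promyelinating cells against 84.9 and 94 CPM in other cells (edgeR adjusted p = 0.0446) and 34.2 and 58.8 CPM in cycling cells (adjusted p = 0.00375). Among listed genes of other cell types of the nerve, Acta2, Rgs5, Cdh5, Kdr, Pdgfra, Ptprc and Tyrobp had no read in any of the 621 cells. Others of the same lists were read: the fibroblast gene Dcn had 26.6 and 19 CPM in promyelinating, 36.7 and 10.5 CPM in other and no read and 0.577 CPM in cycling cells, the macrophage gene Csf1r had 2.77 to 19.3 CPM in the 6 sums and the mural cell gene Cspg4 13.2 to 36.7 CPM, while Pecam1, Emcn, Cd68 and Lum stayed at 3.43 CPM or less. Of the epithelial genes Epcam, Krt5, Krt8, Krt18 and Krt14, the first 4 had no read and Krt14 had up to 0.0384 CPM. The melanocyte gene Pmel had up to 20.1 CPM in a sum, in 6 cells, Dct up to 2.21 CPM, and Tyr and Mlana no read. Col1a1, a collagen gene of fibroblasts, was found in nearly all cells at 501 to 1201 CPM, and was lower in promyelinating than in cycling cells (adjusted p = 0.0357). The listed mural cell gene Pdgfrb had 0 reads in cycling cells and 13.8 to 43.7 CPM elsewhere. It passed the edgeR test in cycling against other cells (adjusted p = 0.00976) and in promyelinating against cycling cells (adjusted p = 0.00338). Of 8 genes that respond to tissue dissociation, 4 were lower in promyelinating than in other cells and 5 lower than in cycling cells, with Fos at 1916 CPM (the mean of 2 plates) in promyelinating cells against 4473 in other cells (edgeR adjusted p = 0.0179). Other cells were the poorest in genes, with a median of 2810 detected genes against 3470 in cycling and 3606 in promyelinating cells, at similar medians of 892662, 805902 and 875315 reads. The part of these measures in the results below was not tested.

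Connexins assemble in rings into hemichannels, and hemichannels of facing membranes dock into gap junctions. In myelinating SCs the facing membranes belong to the same cell: such autotypic junctions join the layers of non-compact myelin at the paranodes and the Schmidt-Lanterman incisures, where gap junctions of connexin 32 shorten the path from the outer cytoplasm to the inner one, and where claudins and E-cadherin seal and hold the layers. Mutations of GJB1 cause the X-linked form of Charcot-Marie-Tooth neuropathy.

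The bases before a start site of Gjb1 and of Cldn19, from RefSeq, are shown. Both genes had their highest levels in promyelinating cells, but so did Gjc3, whose window is not printed, and Cdh1, which had no window. Gjb1 and Cldn19 are also the only members whose windows held a motif searched below. The Gjb1 sequence lies at chrX:101383482-101383731 on the plus strand of GRCm38.p6, before the start nearest the coding exon, inside an intron of the longer Gjb1 transcripts. The Cldn19 sequence lies at chr4:119255191-119255413 on the plus strand and ends where the first annotated exon begins. Both are written 5′ to 3′ with matches to 3 short motifs in capitals. The motifs, GTGGGCG (a core bound by EGR proteins such as EGR2), ACAAAG and ACAATG (cores bound by SOX proteins such as SOX10), were searched on both strands and were chosen after the sequences had been seen.
Gjb1: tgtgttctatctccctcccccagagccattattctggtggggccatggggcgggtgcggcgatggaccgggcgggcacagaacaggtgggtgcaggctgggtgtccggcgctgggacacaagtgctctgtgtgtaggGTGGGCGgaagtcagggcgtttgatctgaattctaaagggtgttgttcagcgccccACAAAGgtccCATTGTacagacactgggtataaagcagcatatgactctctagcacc
Cldn19: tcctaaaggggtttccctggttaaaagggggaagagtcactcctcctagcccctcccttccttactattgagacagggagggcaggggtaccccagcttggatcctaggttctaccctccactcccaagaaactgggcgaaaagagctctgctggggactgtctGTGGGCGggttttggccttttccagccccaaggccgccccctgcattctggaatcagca
GTGGGCG stood in both sequences. In Gjb1 it began 113 bases before the start, where the printed sequence ends. In Cldn19 it began 59 bases before the end of the printed sequence and 86 bases before the RefSeq start, which lies past that end. The Gjb1 sequence also held ACAAAG, beginning 57 bases before the start, and ACAATG on the other strand, printed as CATTGT, with 4 bases between these 2 matches. No matches overlapped. Among all 32841 windows of 250 bases before RefSeq starts, 7.02% held GTGGGCG, 16.5% ACAAAG and 10.7% ACAATG. Windows were found for 6 of the 8 members, at 11 starts. Gjb1 has 4 of these starts, and the printed window is the one with the most matches: start 1 held ACAAAG alone, and starts 2 and 3 held none of the 3 motifs. Both windows of Cldn19, which overlap, held the same GTGGGCG. The single windows of Gjc3, Gja1 and Tjp1 and both windows of Ctnnb1 held none. A match is a description of letters and says nothing of binding in these cells.

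Across the 8 genes, promyelinating cells differed from other cells in 1 gene that passed the test (1 higher, 0 lower) and from cycling cells in 2 (2 higher, 0 lower). Among all 13289 genes tested, 1.78% were called in promyelinating against other cells and 5.93% in promyelinating against cycling cells. The median log2 fold change of the members was 0.36 against other cells and 0.86 against cycling cells, where the medians of all genes were -0.07 and -0.02. No member was called in cycling against other cells, where 0.993% of all genes were. In that comparison 2 members, Gjb1 and Cdh1, had an unadjusted p under 0.05 in edgeR, and DESeq2 called the same 2. The share of all genes with an unadjusted p under 0.05 was not computed, so that count has no background beside it. The number that DESeq2 called among all genes, against which its 2 calls are to be read, stands in the last section.

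**Figure D1:**
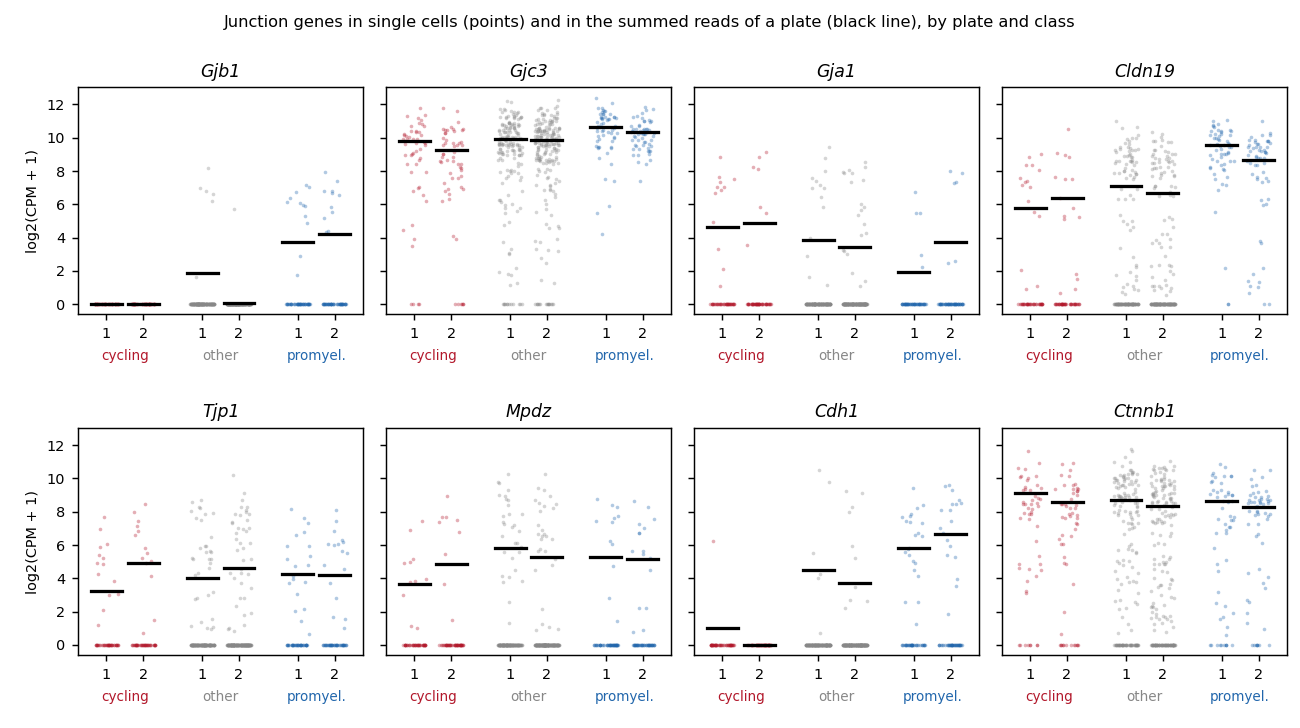
Level of each junction gene in single cells, as log2(CPM + 1), by class and plate (1 and 2). Each point is a cell, and the black line is the level in the summed reads of the cells of that class and plate. Points on the zero line are cells with no read, which are most cells for Gjb1 and Cdh1 and few for Gjc3.

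None of the 3 connexins passed the test, and their levels were ordered differently over the classes. Gjc3 encodes connexin 29, a connexin of SCs and oligodendrocytes, and lies at chr5:137953461-137963098 on the minus strand (GRCm38). It was the most abundant of the 8 genes per length in every class and plate. Its level in the summed reads was 1575 CPM on plate 1 and 1313 CPM on plate 2 in promyelinating cells, 967 and 919 CPM in other cells, and 910 and 619 CPM in cycling cells. Both promyelinating sums were above all 4 others. Here and below, plates that do not overlap are a description and not a test. With 2 plates against 2 this is frequent without any difference, and its share among all genes was not computed. The log2 fold change was 0.69 against other cells (SE 0.23, edgeR adjusted p = 0.261) and 0.86 against cycling cells (SE 0.23, adjusted p = 0.0711), so neither passed the test. Against cycling cells 8 of 12 alternative analyses did call it, with adjusted p from 0.00359 to 0.109, and the model with the plate as a block gave 0.0135. At least 1 read of Gjc3 was found in 119 of 119 promyelinating cells, in 365 of 392 other cells and in 100 of 110 cycling cells.

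Gjb1 encodes connexin 32, and lies at chrX:101376378-101385629 on the plus strand. It had 12.1 and 17.2 CPM in promyelinating cells, 2.62 and 0.0521 CPM in other cells and no read in cycling cells. The promyelinating sums were higher than all others, while the 2 plates of other cells lay far apart. The 419 reads of other cells on plate 1 came from 6 cells, with 94.7% of them in 3 cells, and the 9 reads on plate 2 came from 1 cell. In promyelinating cells the log2 fold change against other cells was 3.51 (SE 2.03, edgeR adjusted p = 0.605), which did not pass the test. With plate 2 alone the log2 ratio was 7.93 and with plate 1 alone 2.26. Against cycling cells the mean level was 452-fold the floor of detection, 3 reads over all cycling cells (0.0324 CPM). The floor covers counting error of reads only, while Gjb1 reads came many per cell, so this ratio does not bound the difference. The edgeR test gave an adjusted p of 0.07, and 5 of 12 alternatives called the difference. Gjb1 was read in 23 of 119 promyelinating cells (20.3% on plate 1 and 18.3% on plate 2), in 7 of 392 other cells (3.43% and 0.461%) and in 0 of 110 cycling cells, which allows a share of up to 2.73% by counting error of cells alone, with both plates pooled. Where it was read in promyelinating cells, its median was 63.4 CPM on plate 1 and 91.6 CPM on plate 2. Gjb1 was thus a gene of few cells in every class, and a cell with no read is not shown to lack the transcript.

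Gja1 encodes connexin 43, a widely expressed connexin, and lies at chr10:56377330-56402513 on the plus strand. It had 23.6 and 28.9 CPM in cycling cells, 13.5 and 9.94 CPM in other cells, and 2.8 and 12.1 CPM in promyelinating cells. Cycling cells were above both other classes on both plates, while promyelinating and other cells overlapped. None of its differences passed the test. The log2 fold change of promyelinating against cycling cells was -1.87 (SE 0.90, edgeR adjusted p = 0.291), and that of cycling against other cells was 1.29 (SE 0.89, adjusted p = 0.683). It was read in 19 of 110 cycling cells, 35 of 392 other cells and 11 of 119 promyelinating cells, and on plate 2 the 3 cycling cells with the most reads held 93% of the reads of their class.

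Of the tight junction members, Cldn19 stood out in promyelinating cells and the 2 scaffold genes did not. Cldn19 encodes claudin-19, a strand-forming tight junction protein of SCs, and lies at chr4:119255414-119262438 on the plus strand. Its exons overlap those of the opposite-strand gene Gm12927, and the strand setting of the counting is not stated, so its reads are uncertain to that extent. Cldn19 had 743 and 404 CPM in promyelinating cells. It had 135 and 102 CPM in other cells and 53.1 and 82.6 CPM in cycling cells. The lower of the promyelinating sums was above every sum of the other classes. The log2 fold change was 2.35 against other cells (SE 0.36, edgeR adjusted p = 0.016) and 3.04 against cycling cells (SE 0.37, adjusted p = 0.00241), or 5.11-fold and 8.2-fold higher. All 12 alternatives called both, with adjusted p up to 0.0208 and up to 0.003. The difference between cycling and other cells did not pass (log2 fold change -0.68, SE 0.35, adjusted p = 0.559).

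The rise of Cldn19 showed both in the share of cells and in the level per positive cell. It was read in 57 of 59 promyelinating cells on plate 1 and in 58 of 60 on plate 2, against 43.4% and 37.3% of other cells and 30.2% and 28.1% of cycling cells. After each cell was thinned to 50000 reads, which left out 5 of the 621 cells, the shares were 93.2% and 81% of promyelinating, 36% and 25.6% of other and 23.1% and 21.1% of cycling cells. Among cells with a read, the median level was 700 and 464 CPM in promyelinating cells and 261 and 204 CPM in other cells. In cycling cells with a read it was 150 and 68.2 CPM. Within the promyelinating class, the level of Cldn19 in a cell (log2(CPM + 1)) correlated with the number of detected genes with Pearson r of 0.26 over 59 cells and 0.57 over 60 cells, and with log10 reads of the cell with -0.05 and -0.32. These values describe cells of the same plate that differ in depth.

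Tjp1 encodes ZO-1, a scaffold that ties tight junction proteins to actin, and lies at chr7:65296165-65527781 on the minus strand. It had 18.2 and 17.2 CPM in promyelinating cells, 15.4 and 23.6 CPM in other cells and 8.49 and 29.7 CPM in cycling cells. All 3 classes overlapped. The sums of other cells, 2459 and 4084 reads, are the same numbers as those of Cldn12 there, although the 2 genes were read in different numbers of cells (34 and 41 for Tjp1, 19 and 19 for Cldn12). The log2 fold changes lay between -0.14 and 0.09, with SEs of 0.78, and edgeR adjusted p of 0.954 or more. Mpdz encodes MUPP1, a scaffold with many PDZ domains that binds claudins, and lies at chr4:81278500-81442815 on the minus strand. It had 38.4 and 35.4 CPM in promyelinating cells, 55.9 and 38.1 CPM in other cells, and 11.6 and 28 CPM in cycling cells. Cycling cells were the lowest on both plates, but their difference from other cells did not pass the test (log2 fold change -1.14, SE 0.59, edgeR adjusted p = 0.567). Tjp1 was read in 19.1% of other, 25.5% of cycling and 31.1% of promyelinating cells, and Mpdz in 15.3%, 18.2% and 23.5%, an order that the levels of neither gene followed.

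The adherens junction members differed from each other in the same way, with a restricted cadherin and a widespread catenin. Cdh1 encodes E-cadherin, the adhesion molecule of the autotypic adherens junctions of SCs, and lies at chr8:106603351-106670246 on the plus strand. It had 55.8 and 98.8 CPM in promyelinating cells. It had 21.6 and 12.3 CPM in other cells, and 0.99 CPM and no read in cycling cells. The classes did not overlap, which is no test with 2 plates each, and all 47 reads of cycling cells came from 1 cell. Promyelinating cells were higher than cycling cells by 7.19 on the log2 scale (SE 1.60, edgeR adjusted p = 0.0363), a call that 10 of 12 alternatives kept. The difference from other cells was 2.26 (SE 1.27, adjusted p = 0.584), and that of cycling from other cells was -4.94 (SE 1.45, adjusted p = 0.252).

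Few cells outside the promyelinating class carried Cdh1. It was read in 23 of 59 and 19 of 60 promyelinating cells (39% and 31.7%), in 6 of 175 and 10 of 217 other cells (3.43% and 4.61%), and in 1 of 110 cycling cells. In other cells, 3 cells held 98.8% of the reads of plate 1 and 85.4% of those of plate 2, and the highest single cell, at 1474 CPM, was an other cell. In promyelinating cells the top 3 held 56.1% and 58%. After thinning, the shares were 33.9% and 29.3% of promyelinating cells and 2.86% and 2.79% of other cells.

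Ctnnb1 encodes β-catenin, which links cadherins to α-catenin and also acts in Wnt signalling, and lies at chr9:120929216-120960507 on the plus strand. It had 400 and 309 CPM in promyelinating cells, 410 and 322 CPM in other cells, and 557 and 388 CPM in cycling cells. Plate 1 was higher than plate 2 in every class, and the classes overlapped in every comparison. The log2 fold change of cycling against other cells was 0.50 (SE 0.27, edgeR adjusted p = 0.578) and that of promyelinating against other cells 0.03 (SE 0.27, adjusted p = 0.994). Ctnnb1 was read in 81.8% of cycling, 84.9% of promyelinating and 66.3% of other cells. Its exons overlap those of Ulk4 on the opposite strand and Mir7090 on the same one. Ulk4 was read in 422 of the 451 cells with a read of Ctnnb1 and in 1 of the 170 cells without, and took 38.8% to 49.6% as many reads as Ctnnb1 in the 6 sums, so the counts of the 2 genes cannot be told apart where they overlap.

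**Figure D2:**
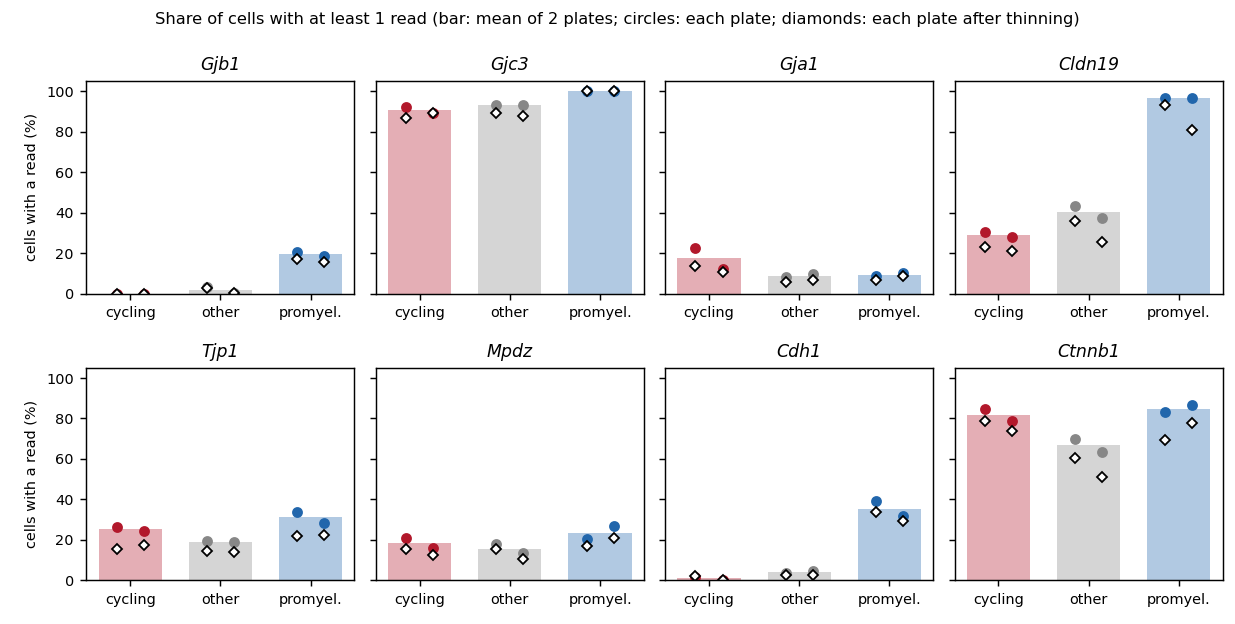
Share of cells with at least 1 read of each junction gene, in percent, by class. Bars are the mean of 2 plates, circles the 2 plates, and open diamonds the 2 plates after thinning each cell to 50000 reads. The mean share is highest in promyelinating cells for every gene other than Gja1, which is highest in cycling cells, as Ctnnb1 is after thinning. Gjb1, Cldn19 and Cdh1 stand at 19.3%, 96.6% and 35.3% in promyelinating cells.

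**Figure D3:**
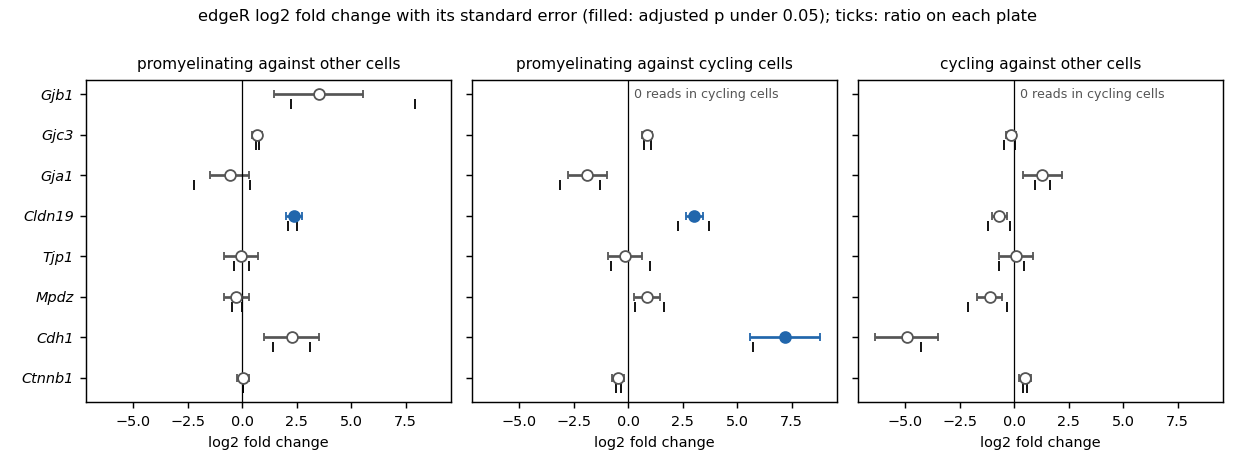
Log2 fold change of each junction gene between classes from edgeR, with its standard error. Filled points passed an adjusted p of 0.05, and the ticks under each point are the ratios on plate 1 and plate 2, left out where a class had no read. Cldn19 in both promyelinating comparisons and Cdh1 against cycling cells are filled, and Gjb1 is not drawn where cycling cells had 0 reads.

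Per length of exon, as CPM divided by kilobases of exon (RPKM), Gjc3, Cldn19 and Ctnnb1 took the first 3 places in every class and plate. Gjc3 stood at 332 ± 42.5 RPKM (SD, n = 2) in promyelinating, 216 ± 7.83 in other and 175 ± 47.2 in cycling cells. Ctnnb1 came second in cycling and other cells (91 ± 23.1 and 70.5 ± 11.9 RPKM), with Cldn19 behind it at 15.9 ± 4.88 and 27.8 ± 5.57 RPKM. In promyelinating cells the order of these 2 turned, with Cldn19 at 135 ± 56.3 RPKM and Ctnnb1 at 68.3 ± 12.4 RPKM, and their plates did not overlap. Cdh1 (16.9 ± 6.66 RPKM) and Gjb1 (8.58 ± 2.12 RPKM) followed in promyelinating cells, and their plates did not overlap either. Mpdz (2.96 ± 0.171), Tjp1 (2.26 ± 0.0934) and Gja1 (0.724 ± 0.638) were the lowest there. In other cells each of the places from 4 to 8 was taken by a different gene on the 2 plates. In cycling cells Gja1 and Tjp1 exchanged places 4 and 5, Mpdz was at 6, and Cdh1 and Gjb1 came last.

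Gjb1, Cldn19 and Cdh1 were read together in 8 of 59 promyelinating cells on plate 1 and in 4 of 60 on plate 2. With Gjb1 in 7 of 392 other cells and in 0 of 110 cycling cells, joint reads were not compared between classes. Of the 12 promyelinating cells with Gjb1 on plate 1, 8 were among the 23 with Cdh1. On plate 2, 4 of the 11 with Gjb1 were among the 19 with Cdh1. The median promyelinating cell had reads of 4 of the 8 members on both plates, and the median cycling or other cell had reads of 3 on plate 1 and 2 on plate 2.

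Within the promyelinating class the highest r between members was 0.34, for Gja1 and Cdh1 on plate 1, with -0.06 on plate 2. Low values do not show that members vary independently, as several had no read in most of these cells. Gjb1 and Cdh1 correlated with r of 0.25 and 0.10 across the cells of plate 1 and plate 2, and Cldn19 and Gjc3 with 0.25 and 0.19. Gjc3 correlated with Mbp, the gene of myelin basic protein, with r of 0.44 over 59 cells and 0.39 over 60 cells, and with the number of detected genes with 0.59 and 0.21. These values describe cells of 1 plate and class in log2(CPM + 1), and Gjb1 and Cdh1 had no read in most of these cells.

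Across all cells of a plate (287 and 334), levels were correlated over all classes, so the values include the differences between classes. Ncmap, which defined the promyelinating class, was among the 3 genes most like Cldn19 and Cdh1 and is left out. The other 2 for Cldn19 were Fa2h, an enzyme of myelin lipid synthesis (r of 0.54 and 0.58), and Csrp2 (0.58 and 0.53), among 7893 genes. For Cdh1 they were Emid1 (0.45 and 0.36) and Gm37389 (0.38 and 0.34). Gjb1 was most like Emid1 (0.32 and 0.37), Mfap3l (0.34 and 0.31) and Slc36a2 (0.36 and 0.29). Gjc3 was most like Mag, an adhesion protein of the inner myelin membrane (0.29 and 0.27), Fa2h (0.32 and 0.26) and Fut8 (0.25 and 0.24). For Ctnnb1 the first was Ulk4, the gene that shares its exons (0.97 and 0.95), and Smc4 was the third (0.15 and 0.16). The values for the other 3 members were low: the first genes were Sf3b3 for Tjp1 (0.23 and 0.19), Uhrf1 for Gja1 (0.15 and 0.14) and Ubr2 for Mpdz (0.15 and 0.15). The next in order were Eif2s3x and Tsr2 for Tjp1, Slc7a1 and Coq7 for Gja1, and Rragc and Zbtb44 for Mpdz.

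Beyond the 8 members, 86 genes of the same junction families had been listed, of which 39 had enough reads to be tested. In promyelinating against cycling cells 0 were higher and 2 were lower, Gjc1 and Cdh2, which is 5.13% of the 39 beside 5.93% of all genes. In promyelinating against other cells and in cycling against other cells edgeR called 0 of the 39. In the 3 comparisons, in this order, 13, 8 and 6 had an unadjusted p under 0.05, and DESeq2 called 13, 7 and 5. The share of all genes with an unadjusted p under 0.05 was not computed, so the first 3 counts have no background beside them. The numbers that DESeq2 called among all genes, the background of its counts, stand in the last section. The median of the 39 log2 fold changes was 0.03 in promyelinating against cycling cells, -0.08 in promyelinating against other cells and 0.08 in cycling against other cells.

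Among the other connexins, Gjc1 was the one that changed. It encodes connexin 45, known best from the heart and smooth muscle. It had 121 and 74.4 CPM in cycling cells, 49.5 and 29.7 CPM in other cells, and 5.79 and 12.7 CPM in promyelinating cells. The classes did not overlap. Promyelinating cells were 11.1-fold lower than cycling cells, with -3.47 on the log2 scale (SE 0.61, edgeR adjusted p = 0.0132) that all 12 alternatives called. Against other cells it was -2.03 (SE 0.57, adjusted p = 0.173), which did not pass. Gja5 was low in all classes (3.66 to 8.17 CPM), and 13 of the 20 connexin genes had no read in any cell. Of the pannexins, which form related channels, Panx1 had 17 to 34.2 CPM in the 6 sums, with adjusted p of 0.986 or more.

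No cadherin other than Cdh1 passed the test as higher in promyelinating cells, and Cdh2 passed it as lower. Cdh2 encodes N-cadherin, the cadherin of contacts of immature SCs with axons and with each other. It had 0.825 and 2.78 CPM in promyelinating cells, 17.6 and 35.8 CPM in other cells, and 23.8 and 42.1 CPM in cycling cells. Between promyelinating and cycling cells its log2 fold change was -4.24 (SE 0.91, edgeR adjusted p = 0.032), and 11 of 12 alternatives called this. Against other cells the log2 fold change was -3.80 (SE 0.89, adjusted p = 0.0953). Cdh19, a cadherin of the SC lineage, had 52.7 and 42.2 CPM in promyelinating cells and 89.3 to 170 CPM in the 4 other sums, with log2 fold changes of -1.53 against other cells (SE 0.37, adjusted p = 0.107) and -1.49 against cycling cells (SE 0.37, adjusted p = 0.0551), neither of which passed in edgeR, while DESeq2 called both. Cdh6 (141 to 215 CPM), Cdh11 (20.3 to 64 CPM) and Ctnna1, the gene of α-catenin (237 to 543 CPM), had no adjusted p under 0.394.

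No other claudin passed the edgeR test, although several had uneven levels. DESeq2 called Cldn11 in promyelinating against other cells, and Cldn11 and Cldn12 in promyelinating against cycling cells. Cldn1 had 25 and 22.3 CPM in promyelinating cells, 0.106 and 2.68 CPM in other cells, and 4.8 CPM and no read in cycling cells, from 18 of 119 promyelinating cells, 6 of 392 other cells and 2 of 110 cycling cells. Its log2 fold change against other cells was 4.18 (SE 2.34, edgeR adjusted p = 0.584). Cldn1 is also a gene of the perineurium, whose other 2 listed markers did not pass the test (Itgb4 at 7.33 and 17.7 CPM there and 18.6 to 52.4 CPM elsewhere, Slc2a1 at 9.16 to 17.4 CPM in all sums). Cldn11, a claudin of oligodendrocyte myelin, had 0.115 CPM and no read in promyelinating cells and 3.99 to 11.8 CPM elsewhere (adjusted p = 0.345 against other cells and 0.142 against cycling cells). Cldn12 had 25.4 and 22.1 CPM in promyelinating, 15.4 and 23.6 CPM in other and 1.26 and 5.17 CPM in cycling cells, with no adjusted p under 0.13. The reads of Cldn15, the fourth by level, came nearly all from 1 cycling cell of plate 2, and 13 of the 23 claudin genes in the table had no read.

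The remaining plaque and scaffold genes showed no difference that passed. Among the tight junction genes with the highest levels were Jam3 (244 to 314 CPM), Magi1 (34.5 to 60.6 CPM) and Pals1 (5.75 to 43.1 CPM). Among the nectins and their plaque genes, Vcl had 53.9 to 128 CPM, Nectin3 15.1 to 43.1 CPM and Pvr 9.21 to 73.2 CPM. Plekha7, the gene of an adherens junction plaque protein, had 39.6 and 50.8 CPM in promyelinating cells against 12.4 and 9.23 CPM in other cells and 19.3 and 4.9 CPM in cycling cells, with adjusted p of 0.352 and 0.247.

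**Figure D4:**
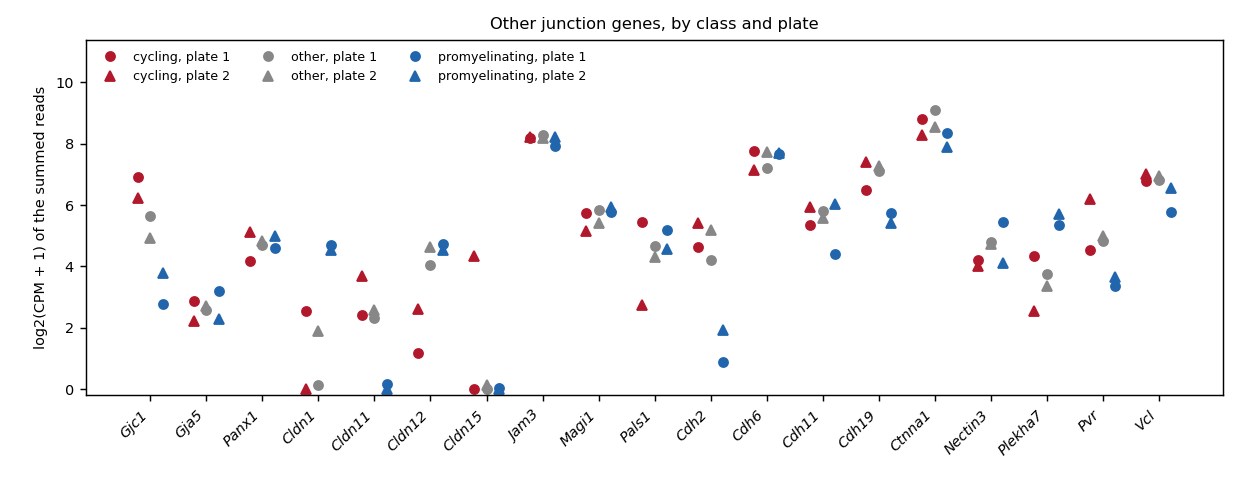
Levels of other junction genes as log2(CPM + 1) of the summed reads, by class (colour) and plate (circles for plate 1, triangles for plate 2). Gjc1 and Cdh2 are lowest in promyelinating cells and passed the test against cycling cells, whereas Cldn1 and Plekha7 are highest there and did not pass.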

How the data were processed

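Single eYFP-positive SCs from P1 sciatic nerve were measured in 743 wells of 2 plates. According to the study's methods, the authors used STAR for mapping, with Ensembl gene models, and featureCounts for counting. The methods name a human assembly, whereas the submitters' processing notes name GRCm38.p5 with STAR 2.6.1c, and all gene IDs are mouse IDs. What they deposited are whole-number read counts for each gene in each well, without normalisation. Strand use in counting is not stated.

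Symbols came from GENCODE M21 (25587 of 25700 IDs matched), which also gave coordinates (GRCm38) and exon lengths. Promoter sequences came from RefSeq (GRCm38.p6). The study's minimum of 1500 detected genes in a well was used. No doublet caller was run, as 1 cell was sorted per well. Well titles gave the plate, which was the replicate. The classes were a rule on 3 genes (50 CPM), with 9 cells between 25 and 100 CPM of the cycling score and 9 between those values of Ncmap. A class is thus a range of a level and not a cell type, and 1 cycling cell also passed the Ncmap minimum.

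Counts were summed per plate and class (45073128 to 172878954 reads per sum) and tested in 1 edgeR 4.0.16 model of all 6 sums (TMM, filterByExpr, robust quasi-likelihood test), with Benjamini-Hochberg adjustment over all genes, calls at 0.05 and no plate term. Standard errors were derived from the log2 fold change and the F statistic. Deviations from class means correlated between classes of a plate with r of 0.102 to 0.207 over 3713 genes, and classes of a plate come from the same mice, so a plate block was an alternative. Other alternatives were DESeq2 1.42.0, limma 3.58.1 on log2(mean CPM per cell + 1), RLE factors, library totals, no filter, thinning to 50000 reads, gene minimums of 1000 and 2500, class minimums of 25 and 100 CPM, leaving out cells between 10 and 100 CPM, and single plates, which give a ratio with no test. The steps were also run on simulated sums, drawn without a plate effect and without single cells. That run does not cover genes read in few cells, and its outcome is not reported here. The floor of detection was 3 reads over a class, 0.00902 to 0.0324 CPM, and covers counting error only, since reads without molecular identifiers are not independent molecules.

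The members, gene lists, class rule and tests were chosen with earlier results of these data known, and nothing here is independent of them. Genes named beyond the 8 members are, in each junction list, those called in any comparison and up to 4 others by mean level, the class genes, myelin genes that check the class name, and the 3 genes most alike to each member, by the smaller r of the 2 plates among genes read in at least 10% of cells. Markers of other cells, SC markers and further myelination markers were named after their values were seen. Some genes that this rule names are not reported here.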

Additional observations from a re-analysis of the deposited data

Results flagged for a closer look

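The 122 wells with fewer than 1500 detected genes entered no comparison, yet reads of 4 members were found in more of them than the share that a count of 0 would allow (2.46%). That limit covers counting error of wells pooled over 2 plates, and any gene read in 4 or more of these wells lies above it. Gjc3 was read in 32% of these wells (39 of 122), Ctnnb1 in 14.8%, Cldn19 in 13.9% and Tjp1 in 4.92%. In their summed reads Gjc3 took 712 CPM and Ctnnb1 293 CPM, near the levels of cycling cells for Gjc3 and below all 6 sums for Ctnnb1. Gjb1, Gja1 and Cdh1 were each read in 2 of these wells and Mpdz in 0. The plates and classes of the members had 2 values each, too few for a search for single values far from the rest.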

How the results depend on the processing

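With 2 plates, small differences in genes of few cells could not be told from the spread between plates. Over 24 member comparisons and 12 tested alternatives there were 288 log2 fold changes. Of these, 269 kept their side of the threshold, 17 gained a call and 2 lost it. Where the main analysis or the alternative called the member, 0 changed direction. Where neither called it, direction was not checked. The 2 losses were Cdh1 in promyelinating against cycling cells, at an adjusted p of 0.129 with no filter on low counts and 0.107 with cells of at least 2500 genes. The gains were Gjb1 and Gjc3 in promyelinating against cycling cells, Gjc3 against other cells (DESeq2, adjusted p = 0.0388), and Gjb1 and Cdh1 in cycling against other cells. Members called in promyelinating against cycling cells numbered 2, and became 4 with DESeq2, limma, thinning or a class minimum of 25 CPM and 1 with cells of at least 2500 genes. Against other cells DESeq2 called 2 in place of 1, and in cycling against other cells DESeq2 called 2 and thinning 1 in place of 0. For all genes, the 237 calls of promyelinating against other cells became 1024 with DESeq2, 521 with no filter, 386 with limma and 392 with thinning. The 132 calls of cycling against other cells became 811, 316, 212 and 250. The 788 calls of promyelinating against cycling cells became 2326 with DESeq2, 1288 with no filter and 1359 with limma. The cause of these changes was not tested. The plate as a replicate block called 295, 154 and 883 genes and changed 1 member call, that of Gjc3. Library totals in place of TMM shifted the median of all genes by -0.13 on the log2 scale in cycling against other cells, and by less than 0.1 in both other comparisons. On single plates the log2 ratio of Gjb1 in promyelinating against other cells ranged from 2.26 to 7.93. Of 96 shares of cells under other depths and minimums, 43 moved by more than the spread between plates.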
